A study of Mus musculus with 9 samples.

Results

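Cyclin D1, encoded by Ccnd1, was the gene targeted here, and it belongs to a small family of genes that decide when a resting cell enters the cell cycle. The family described here has 10 genes, chosen by name: the D-type cyclins Ccnd1, Ccnd2 and Ccnd3, their kinase partners Cdk4 and Cdk6, the inhibitors Cdkn1b (p27) and Cdkn2c (p18), and the pocket proteins Rb1, Rbl1 (p107) and Rbl2 (p130). All 10 were found among the 27179 genes of the deposited table, and all 10 passed the filter for testing (a mean of 10 or more normalized counts), as did 12993 genes in all. The rule names genes of a textbook pathway and uses no measured value, although earlier results of these data were known when the genes were chosen.

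As background, a D-type cyclin binds CDK4 or CDK6, and the active kinase phosphorylates the pocket proteins. Unphosphorylated pocket proteins hold E2F transcription factors inactive, and their phosphorylation frees E2F to switch on genes of DNA replication, Rbl1 among them. p18 keeps CDK4 and CDK6 from pairing with a cyclin, while p27 binds cyclin and kinase together and blocks CDK2 complexes in particular. In the adult liver most hepatocytes rest outside the cycle, and cyclin D1 is the D-type cyclin best known for rising when they are driven to divide after injury or partial hepatectomy.

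Liver pieces (m-lobe) of 9 wild-type C57BL/6J mice were profiled by bulk sequencing of polyadenylated RNA. Each mouse received an AAV8 vector into the retro-orbital sinus at 17 months of age and was sampled 3 weeks later. In all 9 mice the vector carried saCas9, a compact Cas9 nuclease driven by the hepatocyte promoter TBG, together with a guide RNA transcribed from U6. The guide was directed at Rosa26, a locus commonly cut as a neutral control, in 4 mice (sgRosa26, libraries A to D) and at Ccnd1 in 5 mice (sgCcnd1, libraries E to I). No uninjected group is described, so the nuclease and the vector are shared by both groups. The position of the guides is not given in the sources used here. Because the nuclease is hepatocyte-directed and the whole lobe was sequenced, transcripts of other liver cells were counted together with those of hepatocytes, and fewer cells of a type cannot be told apart from less RNA per cell.

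The libraries held 10.8 to 20.2 M (mega) reads assigned to genes, and reads were found for 16407 to 17298 genes. The tissue label was checked on its defining marker: Alb, the albumin gene of hepatocytes, lay between 1247280 and 1677960 normalized counts. Library H stands apart from the other 8, since its Y-linked transcripts are near or at 0 (Ddx3y 2.00 normalized counts). Values without library H are given beside the members whose call or sign changes or whose value moves by over 1.5 times. Across all 12993 genes the groups differed little: the median log2 fold change was 0.01, and 47.1% of genes had a negative one. By limma, 1 gene passed an adjusted p of 0.05 with a lower level in sgCcnd1, a share of 0.0077% in that direction and also in either direction, and that gene was Ccnd1. At an unadjusted p under 0.05 limma found 11% of genes, and 3.89% of genes had groups that did not overlap.

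Read against those shares, 1 of the 10 members was called, 1 had no overlap between groups and 1 had an unadjusted p under 0.05, and each time it was Ccnd1. Of the 10 log2 fold changes 7 were negative and 3 positive, with a median of -0.08. The plot of counts by library shows each of the 10 members, and the plot of log2 fold changes gives their intervals.

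**Figure D1:**
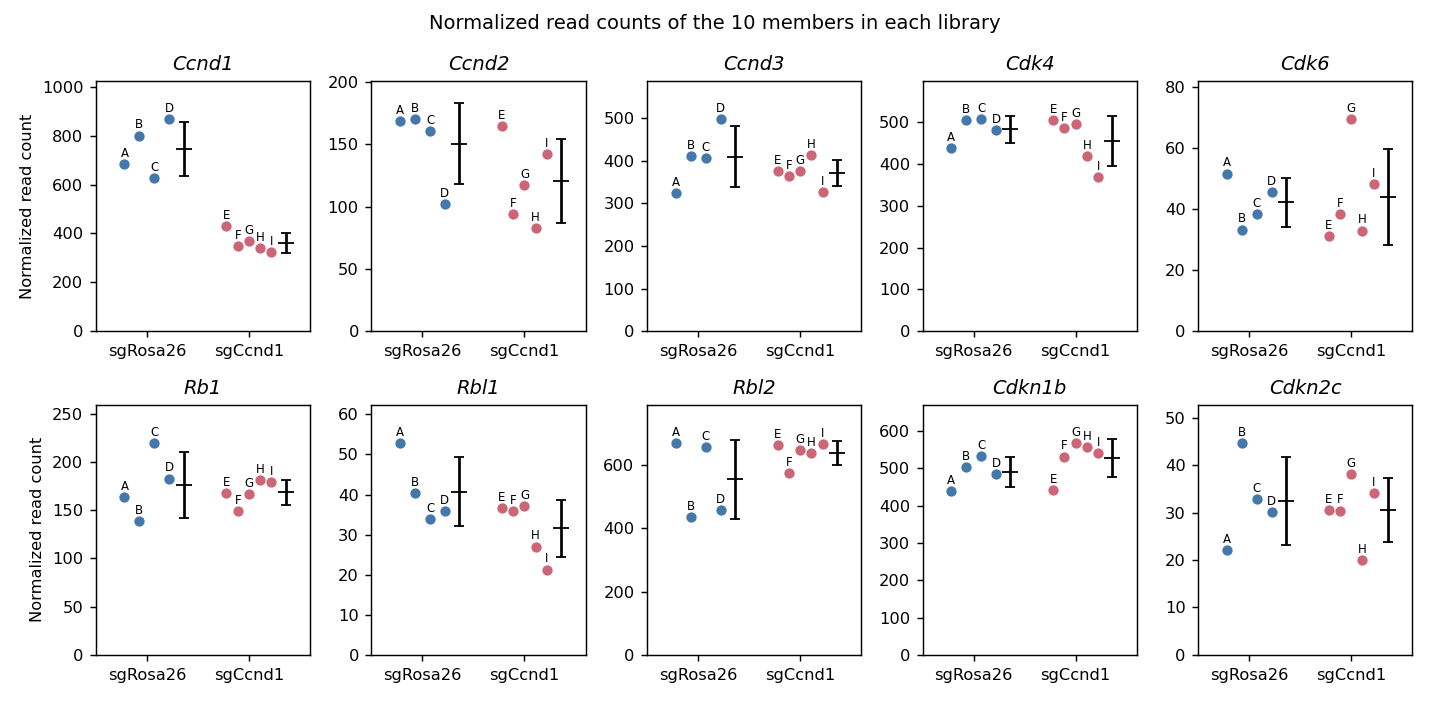
Normalized read counts (vertical axis, from 0) of the 10 members in each of the 9 libraries, sgRosa26 (A to D, blue) and sgCcnd1 (E to I, red); the bars are the mean and SD of each group. The groups are separate for Ccnd1 (625 to 867 against 325 to 428) and overlap for the other 9.

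**Figure D2:**
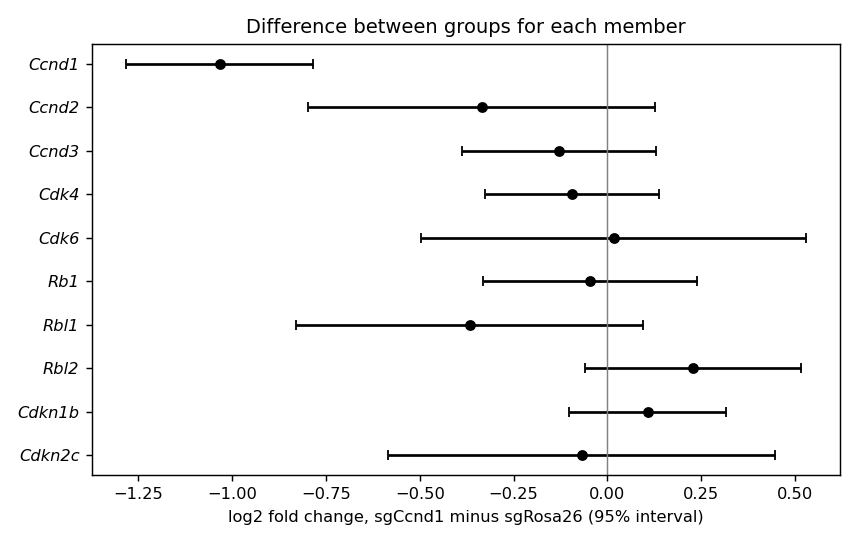
Log2 fold change of each member, sgCcnd1 minus sgRosa26, on log2(normalized count + 1), with its 95% interval from limma (4 and 5 libraries). The interval of Ccnd1 runs from -1.28 to -0.78, and those of the other 9 members include 0.

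Ccnd1 (Entrez 12443) lies on the minus strand of chromosome 7 at 144929931 to 144939925 (GRCm38), and its longest transcript has 5 exons and 3740 bp. It was at 684, 800, 625 and 867 normalized counts in libraries A to D. In libraries E to I it was at 428, 347, 370, 339 and 325. All 5 sgCcnd1 libraries lay below the lowest control. The mean fell from 744 ± 110 (SD, n = 4) to 362 ± 40.6 (SD, n = 5), or 48.6% of control, with a log2 fold change of -1.03 (SE 0.115, limma adjusted p = 0.0116). The 95% interval of the fitted ratio was 41.1% to 58.1% of control, so a substantial part of the Ccnd1 transcript remained in every treated library. Relative to the control mean the single treated libraries kept between 43.7% (I) and 57.6% (E). The spread of Ccnd1 exceeded counting error in both groups, with a coefficient of variation of 14.8% in sgRosa26 and 11.2% in sgCcnd1 against 3.71% and 5.35% from counting alone. DESeq2 gave an adjusted p of 9.71e-12 with all libraries and 1.04e-08 without library H. Without library H the limma log2 fold change was -1.01, with a limma adjusted p = 0.0611. The same threshold was missed without B (limma adjusted p = 0.0852), D (0.0559), F (0.0589) or I (0.0624).

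A transcript level does not give the share of edited alleles, and whether the counted reads used the strand is not stated. The exons of Ccnd1 share 1100 bp, 23.4% of its exonic bases, with LTO1, a gene on the opposite strand. LTO1 was at 153 ± 20.2 normalized counts in sgRosa26 (SD, n = 4) and 151 ± 9.65 in sgCcnd1 (SD, n = 5), with a log2 change of -0.01 (limma adjusted p = 0.988). Within 1 Mb of Ccnd1 the annotation lists 28 other genes, of which 7 were tested. Their log2 fold changes lay between -0.29 and 0.14, and limma called 0 of the 7, with 0.483 as the smallest limma adjusted p.

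Ccnd2 (Entrez 12444, chromosome 6, 127125162 to 127152193, minus strand) encodes cyclin D2, a D-type cyclin prominent in B cells and in the ovary. It was at 168, 170, 160 and 102 normalized counts in libraries A to D. In E to I it was at 165, 94.0, 117, 83.0 and 142. The groups overlapped, with F and H below the lowest control and E close to the higher controls. The means were 150 ± 32.4 (SD, n = 4) and 120 ± 33.7 (SD, n = 5), a log2 fold change of -0.33 with a 95% interval from -0.80 to 0.13 (limma adjusted p = 0.583). The data therefore allow a level between 57.5% and 109% of control. Without library H the log2 fold change was -0.21 (limma adjusted p = 0.810), and without control library D it was -0.51 (limma adjusted p = 0.404). Control library D, the lowest for Ccnd2, was the highest for Ccnd1 and for Ccnd3.

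Transcripts of lymphocytes were read beside these values, and their part in the Ccnd2 values was not tested. Of the 7 T and NK markers 4 were expressed highly enough to test, all 4 had negative log2 fold changes with a median of -1.24, and limma called 0 of them. An unadjusted limma p under 0.05 was found for all 4, beside 11% of all genes. The summed level of all 7 was 70.1 to 190 normalized counts in sgRosa26 and 32.0 to 142 in sgCcnd1. Cd3e, a chain of the T-cell receptor complex, was at 27.1 ± 9.93 in sgRosa26 (SD, n = 4) and 10.7 ± 8.72 in sgCcnd1 (SD, n = 5). All 6 B and plasma cell markers also had negative values, with a median of -0.45 and summed levels of 228 to 451 against 171 to 412. Of these 6, 1 had an unadjusted limma p under 0.05. No defining marker of these classes was at 0 in any library.

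Ccnd3 (Entrez 12445, chromosome 17, 47505051 to 47599691, plus strand) encodes cyclin D3, the D-type cyclin found most widely in resting and differentiated cells. Libraries A to D held 323, 411, 405 and 497 normalized counts. Libraries E to I held 376, 363, 375, 414 and 326. All 5 sgCcnd1 libraries lay inside the control range. The means of 409 ± 71.0 (SD, n = 4) and 371 ± 31.3 (SD, n = 5) gave a log2 fold change of -0.13 with a 95% interval from -0.39 to 0.13 (limma adjusted p = 0.711). Without control library D it was -0.03 and without control library A -0.24. As a ratio this interval runs from 76.4% to 109% of control, so for Ccnd2 and Ccnd3 alike levels above 109% of control lie outside the 95% interval.

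To compare the paralogs, levels were divided by transcript length. Lengths came from the longest annotated transcript, which for Ccnd3 is a non-coding one of 3858 bp and 2 exons. Pools, shares and ratios are therefore also given with its longest coding transcript of 2113 bp. The 3 D-type cyclins together stood at 293, 347, 298 and 377 normalized counts per kb in libraries A to D and at 238, 202, 215, 211 and 194 in E to I. The groups did not overlap. The pool was 329 ± 40.4 per kb in sgRosa26 (SD, n = 4) and 212 ± 16.7 in sgCcnd1 (SD, n = 5), or 64.5% of control, a log2 difference of -0.63 (exact permutation p = 0.00794, adjusted p = 0.0185 over 7 quantities). That p is the smallest that 4 against 5 libraries can give. With the longest transcript of Ccnd3, Ccnd1 itself made up 102 of the 117 normalized counts per kb by which the means differed (87.4%). The test of the pool is therefore not independent of that of Ccnd1, and neither is that of the Ccnd1 share. With the coding transcript of Ccnd3 the pool was 70.0% of control (416 ± 54.1 to 291 ± 20.7 per kb), with the same exact permutation p = 0.00794.

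Ccnd1 supplied 62.3%, 61.6%, 56.2% and 61.5% of this pool in libraries A to D. In E to I it supplied 48.1%, 46.0%, 46.1%, 42.9% and 44.8%. The share was 60.4% ± 2.85 in sgRosa26 (SD, n = 4) and 45.6% ± 1.90 in sgCcnd1 (SD, n = 5), lower by a difference of -14.8 percentage points (exact permutation p = 0.00794, adjusted p = 0.0185). With the coding transcript of Ccnd3 the shares were 47.8% ± 3.02 and 33.2% ± 2.04. The size of the Ccnd1 share thus depends on the Ccnd3 length used, while the difference changed little (-14.6 points). With mean transcript lengths the difference was -14.0 points. Ccnd3 made up 32.2% ± 3.11 of the pool in sgRosa26 and 45.5% ± 3.68 in sgCcnd1, and Ccnd2 7.40% ± 2.16 and 8.94% ± 2.28. With the coding transcript of Ccnd3 its share was 46.4% ± 3.56 in sgRosa26 and 60.3% ± 3.54 in sgCcnd1. The Ccnd2 share was then 5.86% ± 1.75 and 6.53% ± 1.79. Those 2 shares were not tested, since the 3 shares add up to the whole.

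The Ccnd3 share was above every control in all 5 sgCcnd1 libraries, while its level was above every control in 0 of the 5. Per kb, Ccnd2 and Ccnd3 together were at 130 ± 14.4 in sgRosa26 (SD, n = 4) and 115 ± 7.06 in sgCcnd1 (SD, n = 5), a log2 difference of -0.17 (exact permutation p = 0.0873, adjusted p = 0.122). With the coding transcript of Ccnd3 this difference was -0.15 (exact permutation p = 0.190). Per kb, Ccnd1 was at 1.89 ± 0.256 times the level of Ccnd3 in sgRosa26 and at 1.01 ± 0.118 times in sgCcnd1. With the coding transcript these ratios were 1.04 ± 0.140 and 0.553 ± 0.0647. The plot of D-type cyclin transcripts shows the 3 layers in each library.

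**Figure D3:**
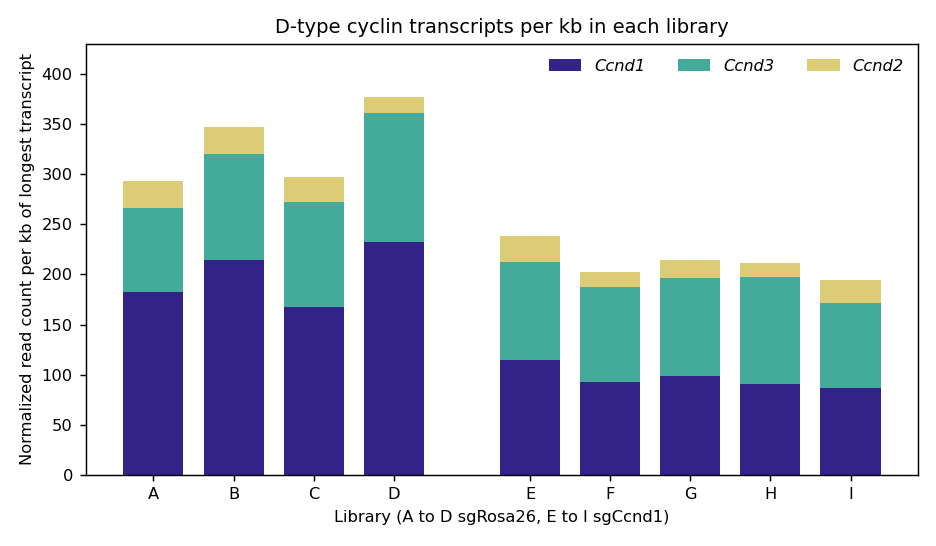
Normalized read counts per kb of the longest transcript (vertical axis, from 0), stacked for Ccnd1, Ccnd3 and Ccnd2 in each of the 9 libraries. The stacks of A to D reach 293 to 377 and those of E to I 194 to 238, and the lowest layer, Ccnd1, goes from a mean of 199 to 96.8.

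Cdk4 (Entrez 12567, chromosome 10, 127063534 to 127067920, plus strand), the kinase partner present in most tissues, was the most abundant member per kb in both groups. Libraries A to D held 439, 505, 508 and 482 normalized counts. Libraries E to I held 505, 487, 496, 419 and 369. E, F and G thus sat within the control range and H and I below it. The log2 fold change was -0.09 with a 95% interval from -0.33 to 0.14, or 79.8% to 110% of control (limma adjusted p = 0.769). Cdk4 shares 641 bp of exon with Tspan31 on the opposite strand, which is far more abundant (4086 ± 742 in sgRosa26, SD, n = 4, and 3572 ± 173 in sgCcnd1, SD, n = 5), so some Cdk4 reads could belong to it. Other exon overlaps with opposite-strand genes of the table are 368 bp for Ccnd2 (9330179D12Rik), 361 bp for Ccnd3 (Bysl), 488 and 408 bp for Rb1 (Rcbtb2 and Lpar6) and 693 bp for Rbl2 (Aktip).

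Cdk6 (Entrez 12571, chromosome 5, 3341485 to 3531008, plus strand), a kinase partner best known from blood cells, was the lowest member per kb. It ranged from 33.3 to 51.6 normalized counts in sgRosa26 and from 31.3 to 69.5 in sgCcnd1, where G was the highest of all 9 libraries. The log2 fold change of 0.02 had a 95% interval from -0.50 to 0.53 (limma adjusted p = 0.985), and without library H it was 0.10. With 33 to 71 reads per library, counting error alone gives a coefficient of variation of 15.5% in sgRosa26 and 15.6% in sgCcnd1, against 19.0% and 35.5% observed. Cdk4 made up 98.4% ± 0.393 of the Cdk4 and Cdk6 transcripts per kb in sgRosa26 (SD, n = 4) and 98.3% ± 0.5999 in sgCcnd1 (SD, n = 5), a difference of -0.16 points (exact permutation p = 0.667).

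The ratio of D-type cyclins to their kinases, a measure added after the values had been seen, holds the targeted gene in its numerator. Its test is therefore not independent of that of Ccnd1. Neither kinase was called. D-type cyclins per CDK4 and CDK6 transcript, each per kb, stood at 1.34, 1.40, 1.19 and 1.58 in libraries A to D. In E to I the ratio was 0.956, 0.839, 0.866, 1.02 and 1.05, below every control. The means of 1.38 ± 0.162 (SD, n = 4) and 0.947 ± 0.0935 (SD, n = 5) differed by -0.54 on the log2 scale (exact permutation p = 0.00794, adjusted p = 0.0185). With the coding transcript of Ccnd3 the ratios were 1.74 ± 0.209 and 1.30 ± 0.133.

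Promoter sequences from RefSeq (GRCm38.p6, 250 bases before to 50 after each start) were found for 7 of the 10 members: Ccnd3, Cdk4, Cdk6, Rbl1, Rbl2, Cdkn1b and Cdkn2c. They were searched on both strands for the E-box CACGTG, a site of the Myc family, and for the E2F-type motifs TTTCCCGC, TTTCGCGC, TTTGCCGC and TTTGGCGC; no motif of these sets contains another. The E-box is in 2349 of 32851 such windows (7.15%) and an E2F-type motif in 744 (2.27%). The promoter of Cdk4, the most abundant member per kb, is printed because it holds 4 E-boxes, a number that 8 of the 32851 windows (0.0244%) reach or pass. Its window is chr10:127063285-127063584 on the plus strand, read 5′ to 3′, with the E-boxes in capitals and their first bases at -172, -118, -98 and -11 from the start. The promoter of Rbl1 is printed because p107 is both a pocket protein and a known E2F target, and it was the only member window here with an E2F-type match. Its window is chr2:157204485-157204784, written 5′ to 3′ on the minus strand, with the motif in capitals and its first base at -18.
Cdk4 promoter: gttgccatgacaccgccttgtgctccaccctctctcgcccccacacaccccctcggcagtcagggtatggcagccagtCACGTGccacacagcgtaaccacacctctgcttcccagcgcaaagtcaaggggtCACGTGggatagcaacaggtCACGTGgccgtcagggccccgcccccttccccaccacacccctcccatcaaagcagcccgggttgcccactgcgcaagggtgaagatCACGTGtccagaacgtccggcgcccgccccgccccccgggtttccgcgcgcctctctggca
Rbl1 promoter: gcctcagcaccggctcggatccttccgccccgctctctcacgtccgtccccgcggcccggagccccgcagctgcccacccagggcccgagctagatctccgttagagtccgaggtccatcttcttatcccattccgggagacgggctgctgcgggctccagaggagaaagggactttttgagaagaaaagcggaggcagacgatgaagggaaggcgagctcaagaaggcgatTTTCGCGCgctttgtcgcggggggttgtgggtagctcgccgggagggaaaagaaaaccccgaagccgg
A match is a description of letters and says nothing of binding in these livers. Cdk6 and Cdkn2c had 1 E-box each.

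Cdkn1b (Entrez 12576, chromosome 6, 134920401 to 134925513, plus strand) encodes p27, an inhibitor that also helps D-type cyclins and CDK4 to assemble. Its levels in libraries A to D were 438, 502, 533 and 484 normalized counts. In E to I they were 442, 531, 568, 556 and 541. G, H and I lay above the highest control, F just under it and E near the lowest. The means were 489 ± 39.9 (SD, n = 4) and 527 ± 49.7 (SD, n = 5), with a log2 fold change of 0.11 and a 95% interval from -0.10 to 0.32 (limma adjusted p = 0.703). Per kb there were 3.05, 3.15, 2.54 and 3.55 D-type cyclin transcripts for each p27 transcript in A to D, and 2.45, 1.73, 1.72, 1.73 and 1.63 in E to I. The groups were apart, though only narrowly between E (2.45) and C (2.54). With the coding transcript of Ccnd3 they nearly touched, with E at 3.278 and C at 3.282. Like the ratio to the kinases, this ratio holds Ccnd1 in its numerator and was added after the values had been seen. Its test is therefore not independent of that of Ccnd1. Cdkn1b, which was not called, also enters the ratio with its log2 fold change of 0.11. The ratio went from 3.07 ± 0.414 (SD, n = 4) to 1.85 ± 0.336 (SD, n = 5), a log2 difference of -0.74 (exact permutation p = 0.0159, adjusted p = 0.0278). With the coding transcript of Ccnd3 it went from 3.89 ± 0.523 to 2.54 ± 0.420, a log2 difference of -0.62 (exact permutation p = 0.0159). With mean transcript lengths the log2 difference was also -0.62 (exact permutation p = 0.0238).

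Cdkn2c (Entrez 12580, chromosome 4, 109660876 to 109667189, minus strand) encodes p18, an inhibitor specific to CDK4 and CDK6. It had 18 to 51 reads per library, ranging from 22.1 to 44.7 normalized counts in sgRosa26 and from 19.99 to 38.2 in sgCcnd1. The groups overlapped, and the log2 fold change of -0.07 had a 95% interval from -0.58 to 0.45 (limma adjusted p = 0.941). Without library H the value was 0.07, with the opposite sign. At this depth the interval runs from 66.7% to 136% of control.

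Rb1 (Entrez 19645, chromosome 14, 73183673 to 73325822, minus strand, 27 exons in its longest transcript) encodes the retinoblastoma protein, a tumour suppressor. It ranged from 138 to 220 normalized counts in sgRosa26, with B lowest and C highest. In sgCcnd1 it ranged from 149 to 181, all within the control range. The log2 fold change was -0.05 with a 95% interval from -0.33 to 0.24 (limma adjusted p = 0.926), and without library H it was -0.07.

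Rbl1 (Entrez 19650, chromosome 2, 157145893 to 157204534, minus strand) encodes p107, the pocket protein that accumulates in cycling cells, and its promoter is the one printed above with the E2F-type motif. Libraries A to D held 52.9, 40.3, 33.8 and 35.9 normalized counts. Libraries E to I held 36.6, 35.8, 37.2, 26.99 and 21.3. H and I were below the lowest control, and the other 3 were inside the control range. The means of 40.7 ± 8.54 (SD, n = 4) and 31.6 ± 7.10 (SD, n = 5) gave a log2 fold change of -0.37 with a 95% interval from -0.83 to 0.10 (limma adjusted p = 0.543). The counts were low, with 15 to 48 reads per library, and counting error alone gives a coefficient of variation of 18.8% in sgCcnd1 against 22.5% observed.

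Rbl2 (Entrez 19651, chromosome 8, 91070057 to 91123844, plus strand) encodes p130, the pocket protein of resting cells and a core part of the DREAM repressor complex. Libraries A to D held 670, 435, 656 and 457 normalized counts, falling into a higher pair (A and C) and a lower pair (B and D). Libraries E to I held 662, 575, 647, 637 and 667, with F between the control pairs and the other 4 near the higher pair. All 5 therefore lay within the control range, and the log2 fold change was 0.23 with a 95% interval from -0.06 to 0.52 (limma adjusted p = 0.544). The coefficient of variation was 22.7% in sgRosa26 and 5.83% in sgCcnd1, against 4.30% and 3.98% from counting alone. The difference in spread was not tested.

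Rbl2 was the most abundant pocket protein transcript in every library. Per kb it made up 70.6% ± 3.36 of the 3 in sgRosa26 (SD, n = 4) and 75.2% ± 0.609 in sgCcnd1 (SD, n = 5). Rb1 contributed 24.03% ± 3.68 and 21.01% ± 0.917, a difference of -3.02 points (exact permutation p = 0.119, adjusted p = 0.139). Rbl1 contributed 5.39% ± 1.23 and 3.80% ± 0.940, and like the Rbl2 share this was not tested. The whole pocket protein pool was at 159 ± 30.5 and 172 ± 9.26 normalized counts per kb.

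Placed in 1 order per kb, the controls ran Cdk4 (235 ± 15.5), Ccnd1 (199 ± 29.3), Rbl2 (113 ± 25.5), Cdkn1b (107 ± 8.77), Ccnd3 (106 ± 18.4), Rb1 (37.8 ± 7.35), Ccnd2 (23.7 ± 5.13), Cdkn2c (13.1 ± 3.78), Rbl1 (8.38 ± 1.76) and Cdk6 (3.67 ± 0.698), each as mean and SD with n = 4. The ranges of neighbours did not overlap between Ccnd1 and Rbl2, between Ccnd3 and Rb1, between Rb1 and Ccnd2, or between Rbl1 and Cdk6. All other neighbours overlapped. In sgCcnd1 the order of the other 9 genes was the same, while Ccnd1 (96.8 ± 10.9, SD, n = 5) stood 4th, beside Ccnd3 (96.1 ± 8.11) and overlapping it. With its coding transcript Ccnd3 (194 ± 33.6 in sgRosa26 and 176 ± 14.8 in sgCcnd1) stood 3rd in the controls, overlapping Ccnd1, and 2nd in sgCcnd1. Among the 12556 tested genes with a length, the control levels per kb reached from percentile 2.76 (Cdk6) to percentile 77.6 (Cdk4), with Ccnd1 at percentile 74.2.

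Covariation with Ccnd1 was examined after the group means were removed, because the guide splits Ccnd1 into 2 clusters that would by themselves make a correlation. Over the 9 libraries, 0 of the 9 other members passed after adjustment, with exact permutation within groups and adjusted p from 0.558 to 0.964 for Pearson's r. Ccnd3 (r = 0.52, exact permutation p = 0.238; rho = 0.67, exact permutation p = 0.0944) and Cdk4 (r = 0.47, exact permutation p = 0.191; rho = 0.53, exact permutation p = 0.132) had the highest positive values. Without libraries D and E, the ones farthest from the median of Ccnd1, these r values were 0.26 and 0.43. Rbl2 had the lowest value (r = -0.62, exact permutation p = 0.248; rho = -0.63, exact permutation p = 0.177), and -0.80 without D and E. Within sgRosa26 its r was -0.91 over 4 libraries and within sgCcnd1 0.24 over 5, and that difference was not tested. In sgRosa26, Ccnd1 fell into the same pairs as Rbl2, with A and C (684 and 625 normalized counts) below B and D (800 and 867). The r of -0.91 thus mostly reflects those pairs.

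Cdkn1b (r = -0.49, exact permutation p = 0.200; rho = -0.48, exact permutation p = 0.231) rested on library E, since r was -0.02 without D and E, -0.06 without E alone and -0.56 without D alone. Rb1 was also negative (r = -0.42, exact permutation p = 0.394; rho = -0.45, exact permutation p = 0.279), with r = -0.85 without D and E and r = 0.0057 without control library C, on which the negative value rests. Rbl1 (r = 0.32, exact permutation p = 0.406; rho = 0.43, exact permutation p = 0.291) and Cdkn2c (r = 0.26, exact permutation p = 0.544; rho = 0.08, exact permutation p = 0.863) were weakly positive, with r = 0.47 and 0.48 without D and E. Cdk6 (r = -0.16, exact permutation p = 0.670; rho = -0.37, exact permutation p = 0.342) and Ccnd2 (r = -0.02, exact permutation p = 0.964; rho = -0.02, exact permutation p = 0.980) were near 0 in r, with 0.04 and 0.00 without D and E. For Ccnd2 that value joins opposite ones, -0.66 within sgRosa26 and 0.56 within sgCcnd1. The within-group r values were also unlike for Cdk4 (0.07 in sgRosa26 and 0.76 in sgCcnd1), Rbl1 (-0.11 and 0.71) and Cdkn1b (-0.15 and -0.80), and their differences were not tested. The adjusted p of rho ran from 0.437 to 0.980 over the 9 members, by exact permutation.

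Among the members themselves, the group-centred r as a description over the same 9 libraries was lowest for Ccnd2 with Ccnd3 (-0.63) and for Ccnd1 with Rbl2 (-0.62), followed by Ccnd3 with Rbl2 (-0.61). It was highest for Rb1 with Rbl2 (0.58) and for Cdk4 with Rbl1 (0.55). All these values share the same libraries and scaling. For each of 10344 genes whose mean reached 50 normalized counts, the r with Ccnd1 was computed in the same way. The extremes of so many values over 9 libraries are given as a description, with no test. The highest were Stat2 (0.93), Ankrd24 (0.92) and Uckl1 (0.92), and the lowest Suz12 (-0.97), Gpn3 (-0.95) and Dars (-0.95). The plot of deviations shows the 9 members against Ccnd1.

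**Figure D4:**
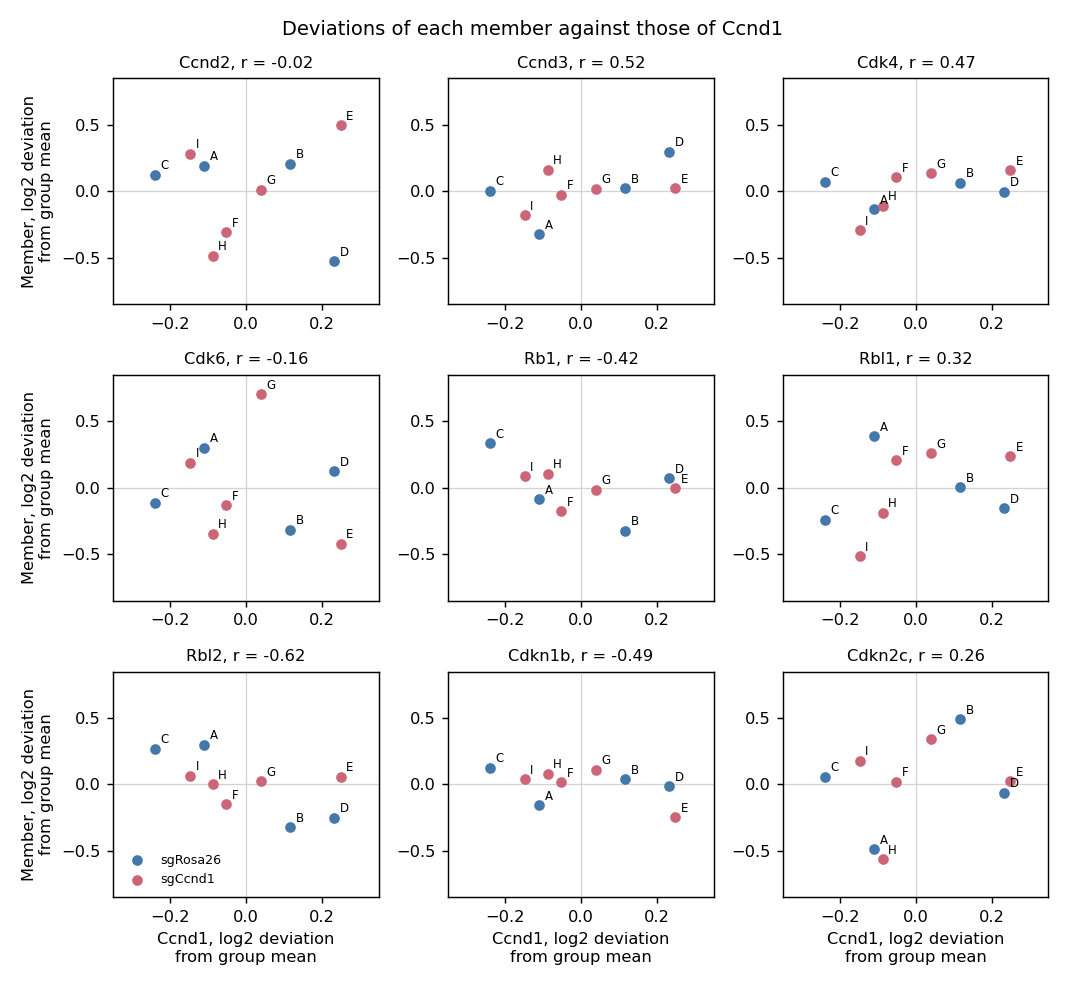
Deviation of each member from its group mean (vertical axis, log2) against that of Ccnd1 (horizontal axis, log2), 1 point per library, blue for sgRosa26 and red for sgCcnd1. The points of Ccnd3 (r = 0.52) slope upward and those of Rbl2 (r = -0.62) downward, and none of the 9 relations passed the exact permutation test after adjustment.

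The rest of the pathway was read from 7 lists with 79 genes, of which 70 were tested. Limma called 0 of the 70 in either direction, and edgeR also 0, each beside 0.0077% of all genes. DESeq2 called 2 of the 68 to which it gave an adjusted p (2.94%), beside 0.816% of all genes. At an unadjusted limma p under 0.05 there were 11 of 70 (15.7%), beside 11% of all genes. Their log2 fold changes were negative for 31 and positive for 39, with a median of 0.04 beside 0.01 for all genes. The plot of pathway lists shows the tested genes of each list beside the members.

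**Figure D5:**
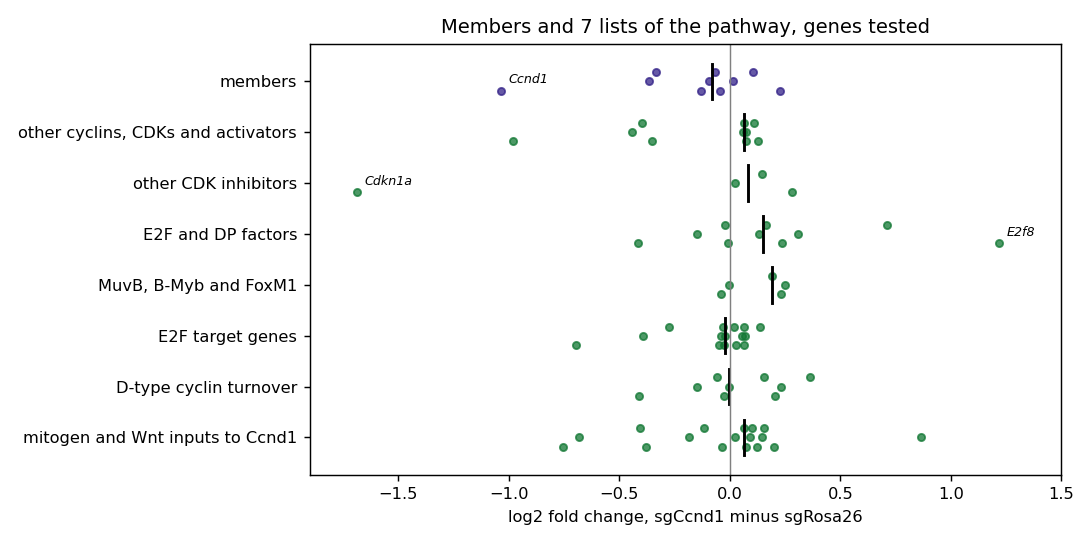
Log2 fold change (horizontal axis, sgCcnd1 minus sgRosa26) of the tested members and of the tested genes in 7 pathway lists, 1 point per gene, with the median of each list as a bar. Cdkn1a (-1.69) and E2f8 (1.22) lie farthest from 0, and neither passed limma's adjusted threshold.

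Of 14 other cyclins, kinases and activators, 10 were tested and 0 called by limma, with 4 negative and 6 positive and a median of 0.06. Cdk1, the kinase of mitosis, was at 7.38, 19.3, 21.6 and 19.4 normalized counts in A to D. In E to I it was at 16.01, 8.95, 8.81, 3.998 and 4.26. The groups overlapped through the low control A, with a log2 change of -0.98 (limma adjusted p = 0.426). Cdc25b, a phosphatase that activates CDK1, had a log2 change of -0.44 (limma adjusted p = 0.544).

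Of 5 other CDK inhibitors 4 were tested and 0 called by limma, with 1 negative and 3 positive and a median of 0.08. The negative one was Cdkn1a, which encodes p21, the inhibitor induced by p53. It was at 416, 915, 420 and 617 normalized counts in A to D and at 245, 218, 119, 153 and 160 in E to I. All 5 sgCcnd1 libraries were below the lowest control, with means of 592 ± 235 (SD, n = 4) and 179 ± 51.2 (SD, n = 5) and a log2 change of -1.69 (limma adjusted p = 0.113; DESeq2 adjusted p = 5.59e-08, and 3.75e-06 without library H). Cdkn2b (p15) was at 11.6 ± 0.531 (SD, n = 4) and 14.4 ± 2.49 (SD, n = 5), with a log2 change of 0.28 (limma adjusted p = 0.670).

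All 10 E2F and DP factors were tested and limma called 0, with 4 negative and 6 positive and a median of 0.15. E2f8, an atypical E2F that represses transcription, was at 39.3, 47.3, 84.5 and 81.6 normalized counts in A to D. It was at 111, 92.2, 160, 335 and 101 in E to I, with H far above the rest. All 5 lay above the highest control, and the log2 fold change was 1.22 (limma adjusted p = 0.282), or 0.91 without library H (limma adjusted p = 0.484). E2f5, a partner of p130, had a log2 change of 0.31 (limma adjusted p = 0.445).

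Of 8 genes of the MuvB core, the B-Myb family and FoxM1, 5 were tested and 0 called by limma, with 2 negative and 3 positive and a median of 0.19. Rbbp4, a histone-binding MuvB subunit, and Lin54, its DNA-binding subunit, had log2 fold changes of 0.23 (limma adjusted p = 0.389) and 0.25 (limma adjusted p = 0.580). Of 16 E2F target genes 15 were tested and 0 called by limma, with 8 negative and 7 positive and a median of -0.02. Mki67, a proliferation marker, was at 38.5 ± 9.12 (SD, n = 4) and 25.2 ± 9.93 (SD, n = 5), a log2 change of -0.70 (limma adjusted p = 0.484). Mcm5, a subunit of the replicative helicase, had a log2 change of -0.28 (limma adjusted p = 0.651).

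All 9 genes of D-type cyclin turnover were tested, and limma called 0, with 5 negative and 4 positive and a median of -0.01. Fbxo31, an F-box protein that directs cyclin D1 to degradation, was at 453 ± 34.2 (SD, n = 4) and 588 ± 92.9 (SD, n = 5), a log2 change of 0.36 (limma adjusted p = 0.306). Cul4a, the scaffold of a ubiquitin ligase, was at 1538 ± 171 (SD, n = 4) and 1763 ± 51.7 (SD, n = 5). Its 5 sgCcnd1 libraries lay above all controls, with a log2 change of 0.20 (limma adjusted p = 0.418).

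All 17 mitogen and Wnt inputs to Ccnd1 were tested, and limma called 0, with 7 negative and 10 positive and a median of 0.06. Tcf7l2, a nuclear partner of beta-catenin, was at 440, 389, 453 and 416 normalized counts in A to D. In E to I it was at 287, 333, 331, 280 and 375, below all controls in each. The log2 fold change was -0.41 (limma adjusted p = 0.253; DESeq2 adjusted p = 0.0395), and without library H it was -0.37 by DESeq2 (DESeq2 adjusted p = 0.192). Egfr, a growth factor receptor of hepatocytes, split the controls into 5928 and 5916 (A and C) against 2185 and 2716 (B and D). These are the same pairs as for Rbl2, and the 5 sgCcnd1 libraries ranged from 4567 to 8644, with a log2 change of 0.86 (limma adjusted p = 0.334).

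Lists of liver cell markers were read beside these results, and their part in the members' values was not tested. Limma and edgeR called 0 of the marker genes and DESeq2 1. At an unadjusted limma p under 0.05 there were 3 of 7 stellate and 2 of 6 cholangiocyte markers, beside 11% of all genes. The hepatocyte, sinusoidal endothelial and Kupffer cell lists had 0 each. Hepatocyte markers had a median log2 fold change of 0.00, sinusoidal endothelial markers -0.02 and Kupffer cell markers -0.06. Stellate cell markers had a median of -0.27, with 6 of 7 negative and summed levels of 3647 to 5988 normalized counts against 3271 to 4928. Cholangiocyte markers had a median of -0.32, with 4 of 6 negative and summed levels of 1366 to 2284 against 1071 to 1477.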

How the data were processed

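Liver RNA of 9 mice (4 sgRosa26, 5 sgCcnd1) was analysed from the table the authors deposited. Per the submitters' processing notes, reads were handled with Trim Galore 0.6.7, HISAT2 2.2.1, featureCounts 2.0.3 and DESeq2 2.11.40.8 and the mm10 (GRCm38) build; the use of strand in counting is not given in the sources used here. The deposited signal is a normalized count per gene, and 100% of values in each library were whole multiples (within 0.01 read) of 1 number, the value of 1 read. Reads carry no molecular identifiers, so statements on counting error cover that error only. No replicate number stands in the column names (only a guide and an animal), so libraries were matched to their group only and are named A to I in column order.

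The test was limma 3.58.1 (R 4.3.3) with lmFit and eBayes with trend, two-sided, on log2(normalized count + 1), for genes with a mean of at least 10, with Benjamini-Hochberg adjustment over 12993 genes and a threshold of 0.05. Fold changes on this scale understate those of low genes. Pools, shares and ratios were compared over the 126 possible assignments by exact permutation (two-sided) and adjusted over 7 quantities; 3 of these (the Ccnd2 and Ccnd3 pool and the 2 ratios) and the coding transcript length were added after values had been seen. Covariation used group-centred log2 values, with 2880 exact within-group permutations adjusted over 9 members. Transcript lengths and positions came from GENCODE M21 (GRCm38). Genes named besides members were the 2 with the smallest p of each pathway list, those most like Ccnd1 and defining markers; LTO1 and other overlapping genes and Ddx3y were named after their values were seen. The values of 1 gene are not reported here. Members and lists were chosen with earlier results of these data known. Alternatives were other pseudocounts (0.1 and 10), filters and scalings, edgeR 4.0.16 and DESeq2 1.42.0 on the recovered reads, and leaving out each library. The scripts were tested on simulated counts. Plots were drawn with matplotlib 3.10.9.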

Additional observations from a re-analysis of the deposited data

Results flagged for a closer look

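Among 62 sets of 4 or 5 libraries examined for a single distant value, 6 had one, where chance gives about 3.1. Ccnd2 was at 102 normalized counts in control library D, while the other controls were at 160 to 170. The Ccnd1 share of the D-type cyclins was 56.2% in control library C and 61.5% to 62.3% in the others. D-type cyclins per p27 stood at 2.45 in library E and at 1.63 to 1.73 in the other sgCcnd1 libraries. Cdk1 was at 7.38 normalized counts in control library A and at 19.3 to 21.6 in the other controls. Cul4a was at 1284 in control library B against 1597 to 1647 in the others. E2f8 was at 335 in library H, the one with almost no Y-linked transcripts, against 92.2 to 160 in the other sgCcnd1 libraries.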

How the results depend on the processing

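The log2 fold change of Ccnd1 stayed between -1.11 and -0.96 when each library was left out, and the number of members called by limma was then 0 or 1. With edgeR without library H it was -1.02 (adjusted p = 0.0560), with 0 members called, while DESeq2 without library H called 1 (Ccnd1, -1.02, adjusted p = 1.04e-08). The other 9 members were called in 0 of their 18 to 20 alternatives with an adjusted p; DESeq2 without library H gave none for Cdkn2c and Rbl1. Over left-out libraries Ccnd2 ran from -0.51 to -0.21, Ccnd3 from -0.24 to -0.03, Cdk4 from -0.14 to -0.02, Rbl1 from -0.45 to -0.24, Rbl2 from 0.12 to 0.33 and Cdkn1b from 0.05 to 0.17. The sign of some small values changed: Cdk6 was -0.026 with scaling to the 75th percentile (-0.16 to 0.12 over left-out libraries), and Cdkn2c was 0.051 with quantile normalization, 0.0049 with edgeR without library H and -0.23 to 0.10 over left-out libraries. Rb1 ran from -0.154 to 0.066 over left-out libraries. The D-type cyclin pool, the Ccnd1 share, the cyclins per CDK4 and CDK6 and those per p27 kept their direction over left-out libraries; all 4 hold Ccnd1, and their exact permutation p (0.0179 to 0.0286) are the smallest that 8 libraries allow, so they do not measure stability. DESeq2 called 2 pathway list genes and 1 marker gene. It called 34 genes higher and 70 lower over the whole table, where limma called 0 and 1, edgeR 0 and 1, limma with quantile normalization 0 and 2, DESeq2 without library H 16 and 25, and edgeR without library H 0 and 0. Over left-out libraries the difference in the Cdk4 share ran from -0.33 to 0.017 points, that in the Rb1 share from -4.60 to -1.66 points and that in the Ccnd2 and Ccnd3 pool from -0.24 to -0.11. Without library A the Rb1 share and that pool each had an exact permutation p = 0.0179, before adjustment. The r of Ccnd2 with Ccnd1 was 0.14 with scaling to the 75th percentile and ran from -0.49 to 0.48 over left-out libraries, that of Cdk6 from -0.36 to 0.14 and that of Rb1 from -0.61 to 0.0057 (without C). The r of Ccnd3 ran from 0.24 (without D) to 0.65, that of Cdk4 from 0.31 to 0.73 (without C, exact permutation p = 0.0444), that of Rbl1 from 0.13 to 0.57, that of Rbl2 from -0.84 to -0.46, that of Cdkn2c from 0.13 to 0.37 and that of Cdkn1b from -0.75 (without A, exact permutation p = 0.0444) to -0.06 (without E), with -0.16 under scaling to the 75th percentile; these p are unadjusted. The causes were not tested. Cdk6, Cdkn2c and Rbl1 could not be tested with a minimum mean of 100. Depth limits Cdk6, Cdkn2c and Rbl1 most. No paired analysis was possible because each column could be matched to a group but to no number.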
